A study of Mus musculus with 6 samples.

Results

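Esm1, the apelin genes Apln and Aplnr, and the adrenomedullin genes Adm, Calcrl, Ramp1, Ramp2 and Ramp3 make up 8 of the 18422 genes in a read-count table of mouse ear skin, and they were taken from it by gene symbol. All 8 were counted deeply enough to be tested, among 14866 tested genes. The 6 libraries came from skin of mice at postnatal day 21. In 3 of them, labelled Vegfr2ecko and called ecko here, the gene for the VEGF receptor VEGFR2 (Kdr) had been deleted in endothelial cells, and 3 libraries of littermates with the genotype Control were the comparison. Both groups had received tamoxifen, the drug that switches on the deletion. The Cre line, the strain and the day on which tamoxifen was started for these mice are not given in the sources used here. In whole skin, fewer cells of a type and less RNA per cell cannot be told apart.

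Esm1 encodes endocan, a secreted proteoglycan made by the tip cells that lead a sprouting capillary and known as a gene that VEGF induces. Apelin, the peptide from Apln, acts on the receptor encoded by Aplnr. Tip cells make apelin, the receptor lies mainly on neighbouring capillary and venous endothelium, and fat cells also make the peptide. Adrenomedullin, the peptide from Adm, acts on a receptor built from the protein of Calcrl and a partner from a Ramp gene. Ramp2 or Ramp3 makes this receptor one for adrenomedullin, while Ramp1 makes it one for the neuropeptide CGRP. Adrenomedullin signalling supports blood and lymphatic vessels, and Adm is a known target of hypoxia-inducible factors in many cell types, among them keratinocytes and macrophages.

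The 3 genes for secreted products had log2 fold changes on both sides of 0, so the 250 bases before their RefSeq start sites (GRCm38.p6) are shown 5′ to 3′ along the gene. The Esm1 window lies at chr13:113209409-113209658 on the plus strand, the Apln window at chrX:48034854-48035103 on the minus strand and the Adm window at chr7:110627407-110627656 on the plus strand. Capitals mark matches on either strand to ACGTG or GCGTG, the core letters of the hypoxia response element.

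Esm1: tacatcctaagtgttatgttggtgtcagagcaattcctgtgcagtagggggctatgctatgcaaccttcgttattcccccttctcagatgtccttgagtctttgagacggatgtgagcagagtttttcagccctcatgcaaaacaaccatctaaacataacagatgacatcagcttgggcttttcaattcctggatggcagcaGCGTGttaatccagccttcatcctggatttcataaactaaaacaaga

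Apln: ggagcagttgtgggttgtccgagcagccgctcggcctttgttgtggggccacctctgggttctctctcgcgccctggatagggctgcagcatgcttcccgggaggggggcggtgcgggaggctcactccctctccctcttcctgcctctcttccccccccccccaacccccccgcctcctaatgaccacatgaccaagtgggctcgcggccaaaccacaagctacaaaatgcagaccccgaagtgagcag

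Adm: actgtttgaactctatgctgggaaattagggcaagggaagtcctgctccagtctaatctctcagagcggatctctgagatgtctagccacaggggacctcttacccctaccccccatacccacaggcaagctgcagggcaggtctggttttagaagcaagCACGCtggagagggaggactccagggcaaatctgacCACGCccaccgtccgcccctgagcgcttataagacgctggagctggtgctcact

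The Esm1 window held 1 match, GCGTG from 47 to 43 bases before the start. The Adm window held 2, both GCGTG on the opposite strand, from 90 to 86 and from 54 to 50 bases before the start, and the Apln window held 0. ACGTG was in none of them. Promoter windows were given for 6 of the 8 genes, and of the other 3, Ramp3 held 2 matches and Calcrl and Ramp1 held 0. At least 1 match was found in 38.6% of 32851 RefSeq promoter windows of this length, so its presence is common. A match is a description of the letters, not evidence of binding.

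The targeted gene separated the groups. Kdr was counted 475, 511 and 595 times in the control libraries but 58, 37 and 42 times in the ecko libraries, and its ecko mean in counts scaled to library size (CPM) was 8.59% of the control mean. Libraries held 17255419 to 18054700 rounded counts. Reads of 4 Y-linked genes numbered 3712 to 4390 in 4 libraries and 24 and 36 in control 3 and ecko 3, so each group held 2 male libraries and 1 female library. The endothelium of the sample was measured with 20 general endothelial genes such as Cdh5 and Pecam1, all of which had counts. Their summed level was 656 to 718 CPM in controls and 453 to 467 CPM in ecko skin.

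Esm1 and Aplnr fell in ecko skin, and no gene of the group rose. These were 2 of 8, against 1.08% of all genes tested that were called lower (edgeR quasi-likelihood, with p adjusted over all genes by Benjamini-Hochberg and a threshold of 0.05), and higher calls made up 0.686%. At an unadjusted p under 0.05, 4 of the 8 were lower and 1, Adm, was higher, where 15.4% of all genes passed in either direction. DESeq2 and limma-voom also called 2 lower and 0 higher. The median log2 fold change of the 8 was -0.29, beside -0.0018 for all genes tested. The labels give no animal number, so that each library came from a separate mouse is not stated, and p-values cover only the variation among these libraries, which may be partly technical.

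**Figure D1:**
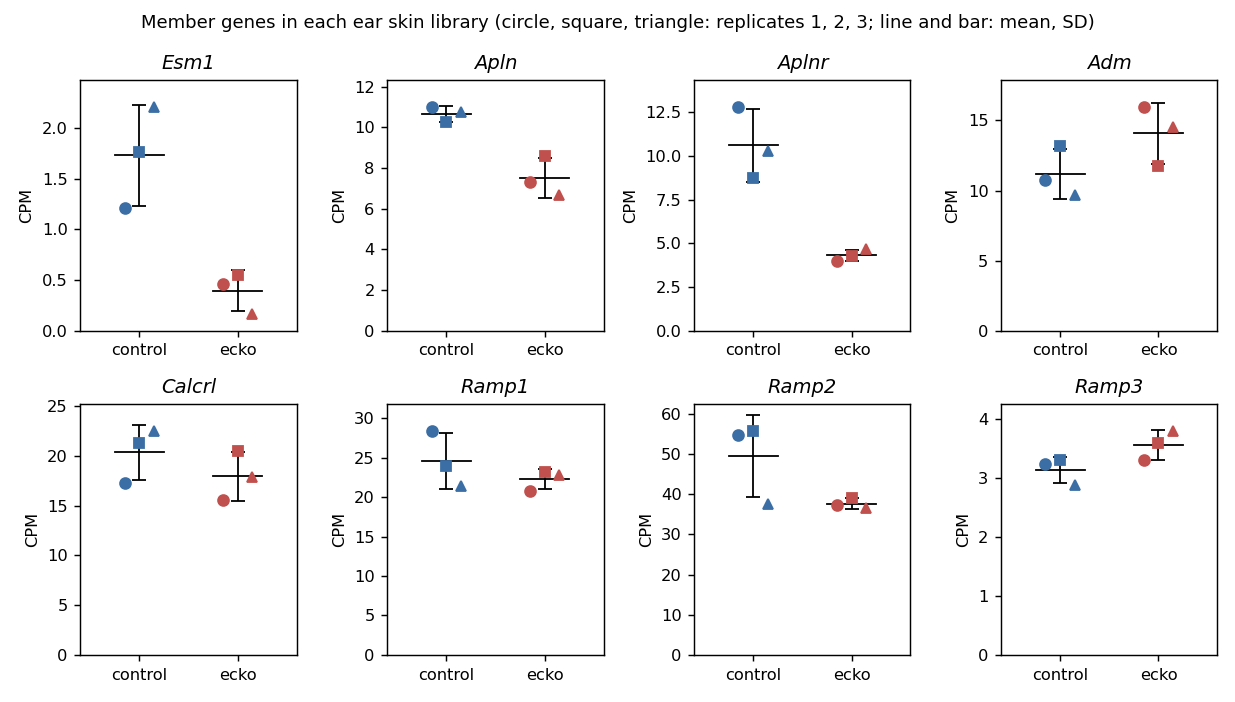
CPM (TMM-scaled) of each of the 8 genes in the 3 control (blue) and 3 ecko (red) libraries, with symbols for replicates 1 to 3 and the mean and SD of each group. Esm1, Apln and Aplnr lie lower in every ecko library than in every control, Ramp3 lies higher in every ecko library, and the other 4 overlap.

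Esm1 (Entrez 71690, chromosome 13 from 113209659 to 113218104 in GRCm38.p6) was rare in this skin. Controls 1 to 3 had 21, 31 and 39 counts and ecko 1 to 3 had 8, 10 and 3, or 1.21, 1.76 and 2.21 CPM against 0.463, 0.553 and 0.168 CPM. Every ecko library lay below every control, and the highest and the lowest of the 6 were control 3 and ecko 3, the female libraries. The mean went from 1.73 ± 0.5004 to 0.395 ± 0.202 CPM (SD, n = 3 each), or 22.8% of the control mean. The log2 fold change was -2.11 (SE 0.40, 95% interval -3.01 to -1.22, edgeR adjusted p = 0.0350). Counting error alone is wide at this depth. The exact Poisson 95% interval was 0.750 to 1.85 CPM in control 1, the lowest control, and 0.265 to 1.02 CPM in ecko 2, the highest ecko library. The call did not outlast the loss of most libraries. The edgeR adjusted p was 0.0948 without control 2, 0.0597 without control 3, 0.124 without ecko 1, 0.0897 without ecko 2 and 0.105 without ecko 3, with log2 fold changes from -2.44 to -1.75 in those fits. In the 4 male libraries alone the log2 fold change was -1.54 (edgeR adjusted p = 0.139).

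Apln (Entrez 30878, chromosome X from 48025146 to 48034853), the apelin gene, was at 11.0, 10.2 and 10.8 CPM in the controls and at 7.30, 8.58 and 6.65 CPM in ecko skin. The 3 ecko values all lay below the controls, whose spread was narrow, and such a separation with ecko below was found for 10.8% of all genes tested. The mean went from 10.7 ± 0.399 to 7.51 ± 0.979 CPM (SD, n = 3 each). The log2 fold change of -0.51 (SE 0.12, 95% interval -0.77 to -0.24) did not pass over all genes (edgeR adjusted p = 0.0727).

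Aplnr (Entrez 23796, chromosome 2 from 85136360 to 85139923), the gene of the apelin receptor, had 12.8, 8.71 and 10.3 CPM in controls and 3.998, 4.26 and 4.64 CPM in ecko skin. The ecko libraries lay close together and far below all controls, of which control 1 was highest. The mean went from 10.6 ± 2.07 to 4.30 ± 0.323 CPM (SD, n = 3 each), 40.6% of the control mean. The log2 fold change was -1.30 (SE 0.16, 95% interval -1.65 to -0.94, edgeR adjusted p = 0.00533), rank 34 by p of all genes tested. Aplnr passed in all 15 alternative fits, each library left out included, with log2 fold changes between -1.42 and -1.14.

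The ratio of ligand to receptor transcripts, each per kilobase of the longest protein-coding transcript, was 1.01, 1.38 and 1.23 Apln per Aplnr in controls and 2.15, 2.36 and 1.68 in ecko skin. All ecko ratios were above all control ratios, with means of 1.21 ± 0.187 and 2.06 ± 0.347 (SD, n = 3 each). For each pair of genes the permutation test compared the log2 ratios, while the means and SDs given are of the ratios themselves. The exact two-sided permutation p was 0.10, the lowest that 3 against 3 libraries can reach. It was 0.20 after Benjamini-Hochberg adjustment over 4 pairs of genes, which were chosen with the values of these genes known. Of the other 3 pairs, Adm per Apln went from 2.38 ± 0.461 to 4.34 ± 1.07 (SD, n = 3 each), without overlap (exact permutation p = 0.10, adjusted p = 0.20). Adm per Calcrl (1.96 ± 0.384 and 2.83 ± 0.796) and Ramp2 per Calcrl (10.3 ± 3.15 and 8.78 ± 1.03) overlapped, with exact permutation p of 0.30 and 0.60 (SD, n = 3 each).

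Adm (Entrez 11535, chromosome 7 from 110627657 to 110629820), the adrenomedullin gene, had 10.7, 13.1 and 9.70 CPM in controls and 16.0, 11.7 and 14.5 CPM in ecko skin. The groups overlapped, because ecko 2 lay below control 2. The means were 11.2 ± 1.77 and 14.1 ± 2.16 CPM (SD, n = 3 each), a log2 fold change of 0.33 (SE 0.15, 95% interval 0.0033 to 0.66, edgeR adjusted p = 0.320). Adm was the gene of the group with the highest fold change, and it did not pass in any of the 15 alternative fits (edgeR, DESeq2 or limma adjusted p from 0.240 to 0.656).

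Calcrl (Entrez 54598, chromosome 2 from 84330626 to 84425405), the receptor gene shared by adrenomedullin and CGRP, had 17.3, 21.3 and 22.5 CPM in controls and 15.6, 20.5 and 17.8 CPM in ecko skin. The groups overlapped, and the log2 fold change was -0.18 (SE 0.13, 95% interval -0.47 to 0.11, edgeR adjusted p = 0.573). That interval excludes a change as large as the one of Aplnr.

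Ramp2 (Entrez 54409, chromosome 11 from 101246334 to 101248250), the partner for adrenomedullin, had 54.8, 55.8 and 37.6 CPM in controls and 37.3, 39.1 and 36.6 CPM in ecko skin. Control 3 lay among the ecko libraries, while the other controls were well above them. The log2 fold change was -0.39 (SE 0.13, 95% interval -0.68 to -0.10, edgeR adjusted p = 0.195). The value rested on control 3, since without it the log2 fold change was -0.55 (edgeR adjusted p = 0.00416), and in the male libraries alone it was -0.53 (edgeR adjusted p = 0.0253). In GENCODE vM21 the exons of Ramp2 share 1103 bases with those of Vps25 on the same strand. Whether the annotation behind the deposited counts holds this overlap was not checked, so the division of reads between the pair is uncertain.

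Ramp1 (Entrez 51801, chromosome 1 from 91179822 to 91225196), the CGRP partner, had 28.4, 23.9 and 21.4 CPM in controls and 20.8, 23.2 and 22.9 CPM in ecko skin. The groups overlapped, with a log2 fold change of -0.14 (SE 0.11, 95% interval -0.39 to 0.11, edgeR adjusted p = 0.624). Ramp3 (Entrez 56089, chromosome 11 from 6658506 to 6677478), the other adrenomedullin partner, had 3.23, 3.30 and 2.89 CPM in controls and 3.30, 3.60 and 3.80 CPM in ecko skin. The ecko values all lay above the controls, with control 2 and ecko 1 only just apart, and such a separation with ecko above was found for 10.2% of all genes tested. Its log2 fold change of 0.18 (SE 0.16, 95% interval -0.17 to 0.53) did not pass (edgeR adjusted p = 0.651). In GENCODE vM21 the exons of Ramp3 share 101 bases with a pseudogene on the opposite strand.

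The makeup of the Ramp transcripts was compared as shares of their summed CPM per kilobase. Ramp2 made up 75.8%, 78.5% and 73.5% in the controls against 73.2%, 72.0% and 70.6% in the ecko libraries. Every ecko library lay below every control, with control 3 and ecko 1 close together. The means were 75.9% ± 2.52 and 71.9% ± 1.27 (SD, n = 3 each), a difference of -4.02 percentage points. The share of Ramp3 was 4.70% ± 0.604 in controls and 6.51% ± 0.444 in ecko skin, also without overlap, and that of Ramp1 was 19.4% ± 2.10 and 21.6% ± 0.861, with overlap (SD, n = 3 each). The exact two-sided permutation p was 0.10 for Ramp2 and for Ramp3, the lowest possible here, and 0.20 for Ramp1. The shares are parts of a common total, so their changes are not independent. With each library left out, the Ramp2 difference ranged from -5.25 points (without control 3) to -2.73 points (without control 2). The exact permutation p was then 0.20 without control 2 or any of the ecko libraries, and 0.10 without control 1 or control 3. Ramp2 remained the most abundant of the 3 in all 6 libraries.

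**Figure D2:**
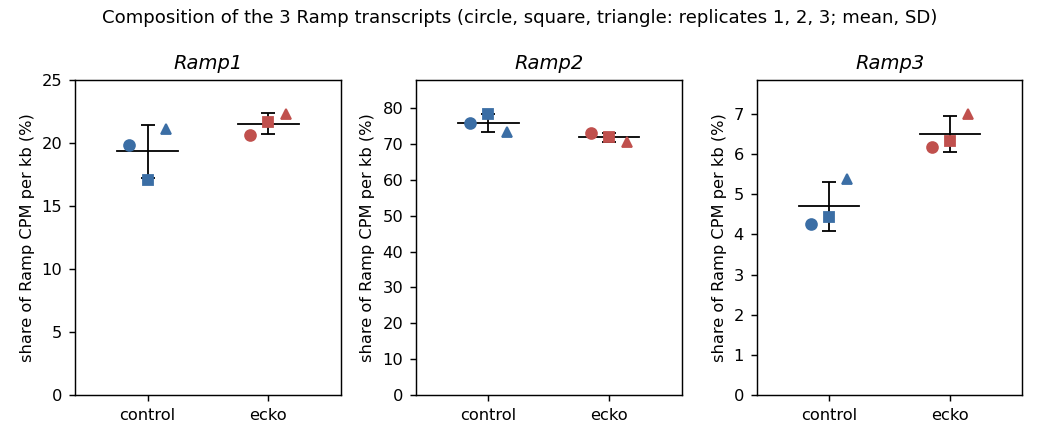
Share of Ramp1, Ramp2 and Ramp3 in their summed CPM per kilobase, in percent, for each control (blue) and ecko (red) library, with the mean and SD of each group. Ramp2 lies between 70.6% and 78.5% in all libraries, and the ecko libraries are lower for Ramp2 and higher for Ramp3 than all controls.

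Per kilobase of transcript, Ramp2 had the highest level of the 8 genes in controls, at 42.0 ± 8.66 CPM per kilobase (SD, n = 3). It was followed by Ramp1 (10.6), Adm (8.05), Calcrl (4.17), Apln (3.39), Aplnr (2.86), Ramp3 (2.55) and Esm1 (0.825). Between neighbours in this order, the control libraries overlapped for Ramp1 and Adm, for Apln and Aplnr, and for Aplnr and Ramp3, and did not overlap for the others. In ecko skin Aplnr (1.16 CPM per kilobase) came after Ramp3 (2.89) and Apln (2.38), with no overlap with either, and Esm1 stayed last at 0.188. The length is that of the longest annotated transcript, and which isoforms were expressed was not measured.

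The other genes of both peptide pathways gave no call. Of 13 genes fixed as processing enzymes, related peptides, decoy receptors and degrading enzymes, 10 were tested, and 0 rose and 0 fell (edgeR, DESeq2 and limma-voom alike; 1 rose at an unadjusted edgeR p under 0.05). Their median log2 fold change was 0.04, and 2 of the 10 had ecko values above all controls, where 10.2% of all genes tested did. Apela, the second apelin receptor ligand, had -0.45 (SE 0.34) from a low control level of 0.799 CPM. Mme, a peptidase that cuts apelin, had 0.04 (SE 0.13), and Furin, a protease that processes peptide precursors, had 0.02 (SE 0.07). Pam, the enzyme that amidates adrenomedullin and CGRP, had 0.06 (SE 0.09). Ackr3, a scavenging receptor for adrenomedullin, had 0.10 (SE 0.07) and Gpr182, an endothelial receptor once grouped with this family, had -0.29 (SE 0.20). Calcb, a CGRP gene, was at 27.0 ± 2.71 and 31.4 ± 1.39 CPM (SD, n = 3 each), with a value of 0.22 (SE 0.09, edgeR adjusted p = 0.278), and Crcp had 0.03 (SE 0.09). The 3 genes below the filter were Adm2, with 0, 0 and 2 counts in controls and 7, 7 and 1 in ecko skin, Calca, with 2, 3 and 2 against 1, 2 and 0, and Calcr, with 6, 9 and 9 against 2, 9 and 5.

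Esm1 and Aplnr also fell relative to the endothelium as a whole. For this, each library was scaled to its summed counts of the 20 general endothelial genes (11567 to 12609 in controls and 7989 to 8357 in ecko skin), and the same edgeR test was run over all genes. On this scale the median of all genes tested was 0.59, 87.6% of genes were called higher and 0.289% were called lower, so only a call in the lower direction stands apart from most genes. With so many genes called, the adjustment changed p little, and adjusted p-values here are not comparable with those under TMM scaling. The unadjusted edgeR p of Esm1 was 0.00435 on this scale and 0.000404 with TMM scaling. That of Aplnr was 0.00112 and 1.22e-05. A lower call therefore needs a less small unadjusted p here than with TMM scaling. Esm1 was at 1.69, 2.46 and 3.37 counts per 1000 endothelial counts in controls and at 1.00, 1.22 and 0.359 in ecko skin, without overlap (relative log2 value -1.53, SE 0.43, edgeR adjusted p = 0.00571). In the male libraries alone its relative value was -0.89 and did not pass (edgeR adjusted p = 0.0659). Aplnr was at 17.8, 12.1 and 15.6 per 1000 in controls and at 8.64, 9.41 and 9.93 in ecko skin, also without overlap (-0.70, SE 0.16, edgeR adjusted p = 0.00167). Both were called lower again when the scale was set by Cdh5, Pecam1 and Tie1 alone, and without each library in turn. Both were also called lower with the capillary genes as the scale (Esm1 -2.01, Aplnr -1.20). The summed capillary level overlapped between the groups, at 821 to 1034 CPM in controls and 841 to 875 CPM in ecko skin. That scale did not follow the drop of the general endothelial genes, so it cannot show a fall relative to them. Esm1 and Aplnr were not alone in being lower on the scale of the 20 genes. Of the 20 general endothelial genes that set the scale, 5 were called lower on it and 2 higher, with Tie1 at -0.48 and Cdh5 at -0.34. Among the other tip cell genes Dll4 (-0.91) was called lower, and among the capillary genes Gpihbp1 (-0.71) and Tcf15 (-1.27). Tcf15 had only 19, 13 and 19 counts in controls and 2, 8 and 4 in ecko skin, and did not pass with TMM scaling (edgeR adjusted p = 0.0812). Genes of other cells were called lower on this scale too. They were Cfd of the fat cell list (-0.87), Prox1 of the lymphatic list (-0.36) and Rgs5 of the mural list (-0.22). Whether Esm1 or Aplnr fell further than these was not tested.

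On the endothelial scale the groups overlapped for Apln. It had 15.4, 14.3 and 16.4 counts per 1000 endothelial counts in controls and 15.8, 18.9 and 14.2 in ecko skin, and a relative log2 fold change of 0.09 (SE 0.13, 95% interval -0.20 to 0.38, edgeR adjusted p = 0.528). Ramp2 had a relative value of 0.21 (SE 0.11, edgeR adjusted p = 0.0928). Adm (0.93, SE 0.14), Ramp3 (0.78, SE 0.16), Ramp1 (0.46, SE 0.11) and Calcrl (0.41, SE 0.15) were called higher on this scale, as most genes were. The values of Ramp1 and Calcrl lay under the median of all genes, and those of Adm and Ramp3 above it. The call of Calcrl was lost without control 1 (0.29, edgeR adjusted p = 0.0727) and without ecko 2 (0.29, edgeR adjusted p = 0.101). Scaled to the capillary genes, whose summed levels overlapped between the groups, Adm had 0.45 (edgeR adjusted p = 0.127) and Ramp3 0.30 (edgeR adjusted p = 0.647). Neither passed. On that scale Apln, Calcrl, Ramp1 and Ramp2 had values below 0, from -0.40 to -0.03, and none of these passed.

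**Figure D3:**
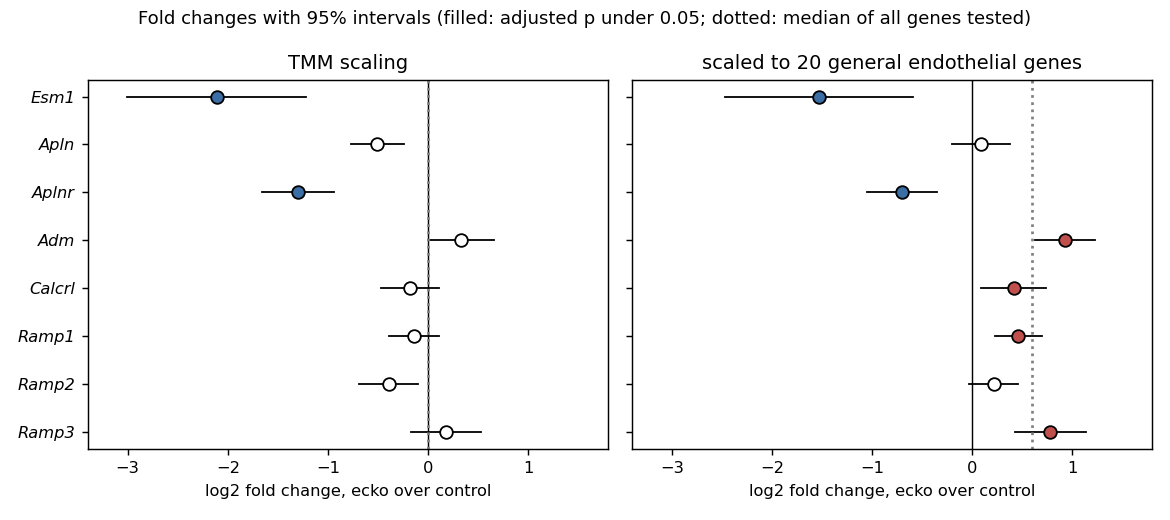
Log2 fold change of ecko over control with its 95% interval for each of the 8 genes, with TMM scaling (left) and scaled to 20 general endothelial genes (right). Esm1 and Aplnr are the points filled as lower on both sides, and the dotted line on the right marks the median of all genes, 0.59.

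Part of the other vessel genes fell too, where 1.08% of all genes tested were called lower and 0.686% higher. Of 14 other tip cell genes 3 fell and 0 rose (median -0.23; 0 rose at an unadjusted p under 0.05, and 0 with DESeq2 or limma-voom). Dll4, the Notch ligand of tip cells, had a log2 fold change of -1.51 (SE 0.14), Angpt2 of -0.55 (SE 0.11) and Pdgfb, which recruits pericytes, of -0.51 (SE 0.07). In 7 of the 14 the values separated the groups with ecko below, where 10.8% of all genes tested did. Of 15 other capillary genes 5 fell and 0 rose (median -0.26, with the same counts of rises by the other tests), with Gpihbp1, the anchor of lipoprotein lipase in capillaries, at -1.31 (SE 0.19) and Emcn at -0.69 (SE 0.10). Of the 20 general endothelial genes 10 fell and 0 rose (median -0.59), again with 0 rises by the other tests. Tie1 and Cdh5 had the smallest p of these, at -1.07 (SE 0.08) and -0.93 (SE 0.07). Of 14 lymphatic genes 5 fell, with Prox1 at -0.95 (SE 0.13) and Flt4 at -0.67 (SE 0.08), and 1 rose, Gja1, which many skin cells express.

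**Figure D4:**
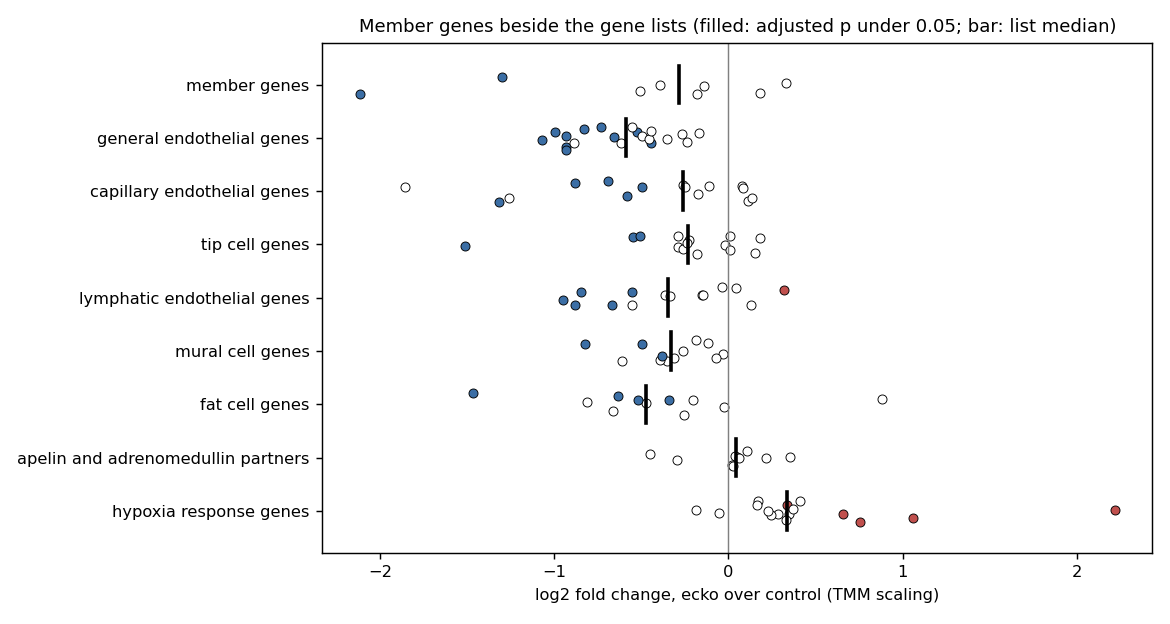
Log2 fold change of ecko over control of each tested gene in the 8-gene group and in 8 gene lists, with filled points for an adjusted p under 0.05 (blue lower, red higher) and a bar at each median. The general endothelial median is -0.59, that of the hypoxia response genes is 0.33, and Esm1 at -2.11 is the lowest point shown.

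Lists of other cells and programmes that can bear on these genes held calls as well, beside 1.08% lower and 0.686% higher over all genes tested. The 16 hypoxia response genes, a programme to which Adm is known to belong, included 5 that rose and 0 that fell (median 0.33; 0 fell at an unadjusted p under 0.05 or by the other tools), with Egln3 at 1.06 (SE 0.09) and Vegfa at 0.75 (SE 0.06), and their summed level was 1522 to 1817 CPM in controls and 1938 to 2187 CPM in ecko skin. Of 11 fat cell genes 4 fell and 0 rose (median -0.47; 1 rose at an unadjusted p under 0.05 and 0 by the other tools), among them Cfd at -1.47 (SE 0.11) and Adipoq at -0.63 (SE 0.12), and their sum was 826 to 991 CPM against 630 to 754 CPM. Of 10 keratinocyte genes 1 rose, Krt1 (0.76, SE 0.15), and 0 fell. At an unadjusted edgeR p under 0.05 5 rose, with DESeq2 3 and with limma-voom 1, and 0 fell in each. Krt6a had 0.38 (SE 0.09). The sum of this list was 23506 to 25145 CPM in controls and 26315 to 29337 CPM in ecko skin. Of 12 mural cell genes 3 fell and 0 rose, with Rgs5 at -0.82 (SE 0.11) and Abcc9 at -0.50 (SE 0.09). At an unadjusted edgeR p under 0.05 8 fell, with DESeq2 6 and with limma-voom 2, and 0 rose in each. The sum of the mural list was 1071 to 1177 CPM against 858 to 904 CPM.

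None of 10 macrophage genes passed (median 0.27; 2 rose at an unadjusted edgeR p under 0.05 and 0 by DESeq2 or limma-voom). Mrc1 and Cd14 each had 0.42 (SE 0.15), and the summed level of the list was 443 to 737 CPM in controls and 738 to 751 CPM in ecko skin. The 10 Schwann cell and nerve genes (1399 to 1519 CPM against 1388 to 1503 CPM) and the 8 fibroblast genes (25925 to 31868 CPM against 24381 to 28612 CPM) overlapped between the groups. None of either list passed with edgeR (1 nerve gene fell and 0 fibroblast genes changed at an unadjusted p under 0.05, and DESeq2 called the same numbers). S100b had -0.45 (SE 0.13), Col1a1 -0.22 (SE 0.11) and Pdgfra 0.19 (SE 0.09).

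No marker in these lists was at 0 counts in all libraries. The part of these cells in the values of Apln, Adm, Calcrl and the Ramp genes was not tested.

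The genes whose profile over the 6 libraries was most like that of Esm1 or Aplnr were sought among 14318 other genes with at least 1 CPM on average. The measure was the root mean square distance between log2(CPM + 0.5) profiles centred on their means. The added 0.5 is near or above the Esm1 levels in ecko skin (0.463, 0.553 and 0.168 CPM). It therefore damps the fall of Esm1 in these distances, and its nearest genes are those nearest to the damped profile. Nearest to Esm1 were LOC100041504 (distance 0.23, where the median gene was at 0.72), the clock output gene Dbp (0.27), Prnd (0.27), Dll4 (0.28) and Cyp2e1 (0.28). Nearest to Aplnr were Tspan13 (0.11, where the median gene was at 0.63), Pcp4l1 (0.13), the arterial connexin gene Gja4 (0.14), Tie1 (0.15) and Ushbp1 (0.16). All 10 fell in ecko skin (edgeR adjusted p from 0.000454 to 0.0255), from Cyp2e1 at -1.73 to Dbp at -0.99. The distance uses the same libraries as the fold changes, so it is a description.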

How the data were processed

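RNA from snap-frozen ear skin was made into poly(A) libraries, per the labels' protocols, which name no step that marks the strand. The authors deposited expected counts (estimated read counts per gene), not scaled between libraries, with 10.5% of values not whole. The submitters' processing notes give the build GRCm38.p6 and the tools RSEM 1.3.1, Bowtie2 2.4.5 and HISAT2 2.2.1, without roles. Counts were rounded. Groups came from the sample titles. Genes passing filterByExpr (minimum count 10) were scaled by TMM and tested with edgeR 4.0.16 (R 4.3.3) quasi-likelihood fits of genotype alone over the 6 libraries. The standard error was the log2 fold change divided by the square root of F. Coordinates and promoters came from RefSeq (18370 of 18422 gene identifiers matched), transcript lengths from GENCODE vM21 (protein-coding transcripts, in place of the planned RefSeq lengths). Within-group counts differed by 4.89 to 14.8 times the sampling variance, so no library was a duplicate.

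The genes, lists and tests were chosen with earlier results of these data known. Named were all 8 genes, Kdr, the pathway partners, the 2 smallest p of each list and the 5 nearest profiles to Esm1 and to Aplnr; Angpt2, Gja1, Tcf15 and the gene pairs were chosen after their values were seen. Some genes that the rule takes are not reported here. Alternatives were DESeq2 1.42.0, limma-voom (limma 3.58.1), upper-quartile and RLE factors, other filters, a sex term, a replicate block, each library left out, a threshold of 0.1, other scaling genes and the male libraries alone (added after the data were seen). The test was checked on simulated data.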

Additional observations from a re-analysis of the deposited data

How the results depend on the processing

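Of 275 recomputed values, 238 kept their direction and their side of the threshold or stayed within 1.5 times. The number of the 8 genes that fell, 2 in the reported fit, was 1 (Aplnr) with the replicate block and 1 to 2 when each library was left out, and 3 at an adjusted p of 0.1. It stayed at 2 without control 3 and in the male libraries alone, where Ramp2 passed and Esm1 did not. The number higher was 0 in every fit. Over all genes, 262 were called in the reported fit, 426 with DESeq2, 451 at an adjusted p of 0.1, 174 in the male libraries alone and 56 to 407 when each library was left out (161 without control 1, 116 without control 2, 407 without control 3, 74 without ecko 1, 56 without ecko 2 and 132 without ecko 3). Relative to the endothelial or the capillary genes, 2 of the 8 were lower in every fit except that on the male libraries, with 1. On the endothelial scale most genes were called higher, so a lower call there needs a less small unadjusted p than with TMM scaling. Relative values turned negative with the capillary genes as the scale for Apln (-0.40), Calcrl (-0.076), Ramp1 (-0.026) and Ramp2 (-0.27). With TMM scaling these were -0.51, -0.18, -0.14 and -0.39. The summed capillary level overlapped between the groups (821 to 1034 CPM in controls, 841 to 875 CPM in ecko skin), unlike that of the general endothelial genes. That of Apln ranged from -0.033 to 0.18 when each library was left out and was negative without ecko 2. The cause was not tested.

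The labels share replicate numbers between the groups without saying what they mark. Same-numbered libraries had deviations from their group means correlated at 0.08, 0.02 and 0.20 across genes. The highest, 0.20, was that of control 3 with ecko 3, the female libraries. Differently numbered libraries had values from -0.15 to 0.09, and control 1 correlated best with ecko 2 (0.09). These values do not settle whether the numbers mark pairs, and the reported fit did not pair them. With the replicate block 192 genes were called, Esm1 had an edgeR adjusted p of 0.0680 and Aplnr of 0.0130. Esm1, at 3 to 39 counts, is limited by depth.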
